A study of Rattus norvegicus with 26 samples.

Results

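Pax6, Emx2, Sox2, Sox9, Hes1 and Hes5 are transcription factors that mark neural progenitor cells of the developing cortex. They were followed here across 4 kinds of primary rat brain cell culture and across mixtures of the cultures' RNA. The 6 genes were chosen by name, through the symbols that the array's annotation gives to its probe sets (groups of short probes read as 1 value). The choice was made with earlier results of these data known, so counts over the genes describe them and are no test. A probe set was found for 5 of the 6, out of 14217 genes with a probe set on the array. No probe set carried the symbol Sox9, which was not analysed here. Pax6, Emx2 and Hes1 each had 1 probe set, Hes5 had 2 and Sox2 had 4, and each gene is given by its probe set of highest mean level unless another is named.

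The cultures came from the cerebral cortex of rat pups at postnatal day 1 and are labelled neuronal, astrocytic, oligodendrocytic and microglial, with 4 biological replicates of each (16 arrays). Neither strain, days in culture nor purification of the cells is given in the sources used here, and no treatment or genetic change is named. The 5 mixtures (10 arrays, 2 replicates each) hold RNA of known cultures in stated shares. NA1, NA2 and NA3 contain 0.25, 0.5 and 0.75 neuronal RNA, with astrocytic RNA as the rest. NAO contains 0.5 neuronal, 0.25 astrocytic and 0.25 oligodendrocytic RNA, and NAOM contains 0.5 neuronal, 0.2 astrocytic, 0.2 oligodendrocytic and 0.1 microglial RNA. For replicate 1 the parent cultures were neuronal 1, astrocytic 1 and, where used, oligodendrocytic 2 and microglial 2. For replicate 2 they were neuronal 2, astrocytic 4 and, where used, oligodendrocytic 4 and microglial 3. All values are log2 expression values. They have no true zero, so levels are compared between samples for a gene and never between genes. The median over all probe sets lay between 5.26 and 5.31 on the culture arrays and between 5.33 and 5.41 on the mixture arrays. A group mean under the median of every array is called dim below, and a fold over a dim level is written as "at least".

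In the embryonic cortex, radial glia divide along the ventricle and give rise to neurons and later to astrocytes and oligodendrocytes. Pax6 (a paired-box factor) and Emx2 (a homeobox factor) pattern the dorsal forebrain and act in radial glia. Sox2 is an HMG-box factor that keeps progenitors undifferentiated, and Sox9 is a relative that takes part in the switch from neurons to glia. Hes1 and Hes5 are basic helix-loop-helix repressors. They are switched on when a Notch ligand on a neighbouring cell releases the intracellular domain of the Notch receptor, which joins the DNA-binding protein RBPJ at their promoters and so holds back proneural genes.

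The promoters of Hes1 and Hes5 are shown because both genes are known Notch targets, yet their signals differed across these cultures. RefSeq promoter windows (250 bases before to 50 bases after a transcript start, rat build GRCr8) were given for 4 of the 6 genes. Printed here is the stretch ahead of the annotated gene start, written 5′ to 3′ on the gene's strand, with the RBPJ core motif TGGGAA or its reverse complement TTCCCA in capitals. The Hes1 stretch is chr11:84213046-84213295 on the minus strand and the Hes5 stretch is chr5:170804327-170804510 on the plus strand.
Hes1: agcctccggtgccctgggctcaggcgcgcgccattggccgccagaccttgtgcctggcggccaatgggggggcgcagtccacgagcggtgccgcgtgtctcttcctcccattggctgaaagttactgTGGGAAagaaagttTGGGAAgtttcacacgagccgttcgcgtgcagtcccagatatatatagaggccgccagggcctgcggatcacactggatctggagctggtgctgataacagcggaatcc
Hes5: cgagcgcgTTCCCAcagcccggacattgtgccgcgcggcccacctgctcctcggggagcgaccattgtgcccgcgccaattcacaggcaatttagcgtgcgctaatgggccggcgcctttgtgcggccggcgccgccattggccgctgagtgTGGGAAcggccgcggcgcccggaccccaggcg
The Hes1 motifs start 123 and 109 bases before the transcript start, and those of Hes5 start 242 and 98 bases before it. The transcript start of Hes1 follows directly on the printed stretch of 250 bases. That of Hes5 lies further on than the end of its printed stretch of 184 bases, so its positions do not count from that end. The Pax6 window, which lies inside the annotated gene, held 1 RBPJ motif, 201 bases before its transcript start, and the Sox2 window held 0. Of 33469 rat windows of the same length, 25.7% held the motif on either strand and 3.85% held 2 or more. The N-box CACNAG, a site bound by Hes repressors, was found 4 times in the Hes1 window (204, 171, 97 and 24 bases before the start). It was found 1 time in that of Pax6 and 0 times in those of Hes5 and Sox2. Of all windows, 43.1% held at least 1 N-box and 11.2% held 2 or more. No N-box overlapped an RBPJ motif in these windows. A match of letters is a description of the window and shows no binding.

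Of the 5 genes measured, 4 were higher in astrocytic cultures when set against the mean of the other 3, by limma with a Benjamini-Hochberg adjusted p under 0.05 over 31042 probe sets and a log2 difference of at least 1. Over all probe sets, 8.14% were called higher and 7.55% lower in this comparison, and the median difference was -0.04. Pax6, Emx2 and Hes1 were higher in astrocytic cultures than in each other culture, as were 4.21% of all probe sets, whereas the Sox2 levels of astrocytic and oligodendrocytic cultures overlapped. Hes5 stayed near the array median in every culture. The arrays carry RNA of whole cultures, so fewer cells of a type and less RNA per cell cannot be told apart.

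**Figure D1:**
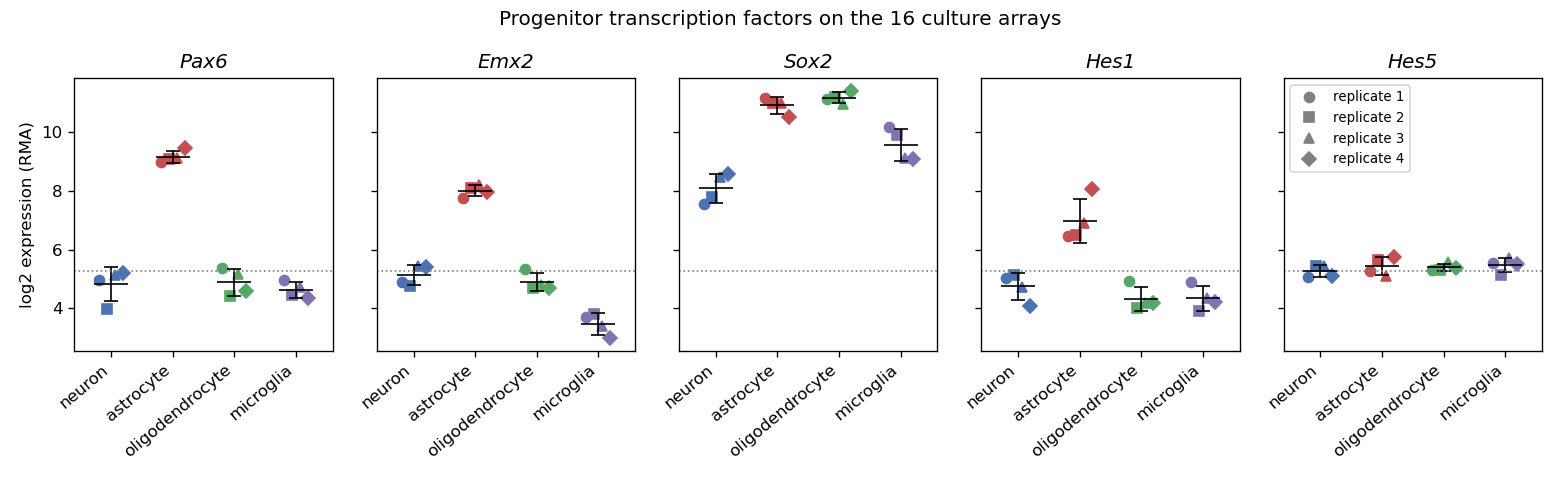
Log2 expression (vertical axis) of the 5 measured genes on the 16 culture arrays, by culture (horizontal axis). Marker shapes are replicates, black bars are the mean and SD of 4 arrays, and the dotted line is the lowest array median, 5.26. Pax6, Emx2 and Hes1 stand above the line in astrocytic cultures, and Sox2 lies between 10.51 and 11.41 on the astrocytic and oligodendrocytic arrays.

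Before the genes are taken in turn, the cultures were compared with markers of the cell types they could hold. The neuronal marker list averaged 10.72 to 11.10 on neuronal arrays and 5.03 to 6.98 on the others. The astrocytic list averaged 9.66 to 10.83 on astrocytic arrays, but also 7.28, 8.07, 9.43 and 9.15 on neuronal arrays 1 to 4, 8.65, 7.26, 6.70 and 6.90 on oligodendrocytic arrays 1 to 4, and 5.52 to 6.03 on microglial arrays. Oligodendrocytic replicate 1, highest in this list among its group, was also the highest oligodendrocytic array for Pax6, Emx2 and Hes1 (values below), and the part of these markers in that was not tested. The microglial list averaged 10.02 to 10.82 on microglial and 8.18 to 9.29 on oligodendrocytic arrays, and the oligodendrocytic list averaged 9.54 to 11.82 on oligodendrocytic and 7.60 to 9.24 on microglial arrays. The last 2 kinds of culture thus each carried markers of the other. Astrocytic replicate 4 stood apart from the other 3 astrocytic arrays in some lists. Its fibroblast and meningeal list averaged 8.99 against 6.61 to 6.69, its astrocytic list 9.66 against 10.41 to 10.83, and its ependymal list 5.25 against 7.64 to 8.52. The rise in the first list was mainly in collagen genes. Col1a1, Col1a2 and Col3a1 read 13.01, 13.11 and 12.56 on this array, against 6.78 to 8.24 on the other astrocytic arrays. Pdgfrb read 7.60 against 6.75 to 6.91 and Ogn 10.04 against 9.96 to 10.14. Dcn and Lum stayed at 3.13 to 3.52 on the astrocytic arrays except for lower Dcn values down to 3.31. The other 3 were not alike in every list either. The oligodendrocytic list averaged 7.52 on astrocytic array 1 and 5.51 to 5.98 on arrays 2 to 4. The microglial list averaged 5.67 and 5.81 on astrocytic arrays 2 and 3, and 4.46 and 4.26 on arrays 1 and 4. Against the mean of the other 3 cultures, 5 of 7 fibroblast and meningeal markers (median 3.41) and 3 of 3 ependymal markers (median 2.44) were called higher in astrocytic cultures, as the progenitor factors were. These lists averaged 4.03 to 5.68 and 4.07 to 4.95 on the arrays of the other cultures, and their part in the results on the progenitor factors was not tested. The 5 endothelial markers measured were under the median on all 26 arrays. The description of microglial replicate 4 reads as a mixture while its cell type is microglial, and it was kept as a culture.

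Pax6 was higher in astrocytic cultures than in each other culture. On the 4 astrocytic arrays its log2 level was 8.99, 9.07, 9.13 and 9.46. On the neuronal arrays it was 4.97, 3.99, 5.15 and 5.21, on the oligodendrocytic arrays 5.38, 4.42, 5.18 and 4.60, and on the microglial arrays 4.96, 4.46, 4.72 and 4.36. Every astrocytic array was thus above every array of the other cultures, and the other 3 cultures overlapped each other. The means were 9.16 ± 0.21 (SD, n = 4) in astrocytic, 4.83 ± 0.57 in neuronal, 4.90 ± 0.46 in oligodendrocytic and 4.63 ± 0.27 in microglial cultures, the last 3 being dim. Against the mean of the others, Pax6 was higher in astrocytic cultures by 4.38 ± 0.21 (log2, SE; adjusted p = 5.63e-10), at least 20.8-fold. In the pairwise comparisons it was higher than in neuronal cultures by 4.33 ± 0.26 (adjusted p = 2.37e-09), than in oligodendrocytic by 4.27 (1.09e-08) and than in microglial by 4.54 (3.25e-09).

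Without astrocytic replicate 4, the array with the high fibroblast and meningeal list, the Pax6 difference from the mean of the others was 4.28 ± 0.24. Among the other 3 cultures no pair passed the test for Pax6. The differences were -0.07 for neuronal against oligodendrocytic (95% interval -0.63 to 0.49), 0.20 for neuronal against microglial (-0.36 to 0.76) and 0.27 for oligodendrocytic against microglial (-0.29 to 0.83), and all 3 are differences between dim levels.

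Emx2 followed the same order at the top and differed at the bottom. Its log2 level was 7.76, 8.11, 8.20 and 7.95 on the astrocytic arrays. It was 4.90, 4.77, 5.44 and 5.41 on the neuronal, 5.34, 4.71, 4.81 and 4.70 on the oligodendrocytic, and 3.72, 3.80, 3.40 and 2.98 on the microglial arrays. The astrocytic arrays lay above all others, the microglial arrays lay under all others, and the neuronal and oligodendrocytic arrays overlapped. The means were 8.01 ± 0.19 (SD, n = 4) in astrocytic, 5.13 ± 0.34 in neuronal, 4.89 ± 0.31 in oligodendrocytic and 3.48 ± 0.37 in microglial cultures, again with the last 3 dim.

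The Emx2 difference between astrocytic cultures and the mean of the others was 3.51 ± 0.17 (adjusted p = 4.64e-10), at least 11.4-fold. It was 2.87 ± 0.21 against neuronal (1.55e-08), 3.11 against oligodendrocytic (2.22e-08) and 4.53 against microglial cultures (2.96e-10). Emx2 was also called higher in neuronal than in microglial cultures, by 1.66 (adjusted p = 5.56e-06), and in oligodendrocytic than in microglial cultures, by 1.42 (0.000136). No fold is given for these last 2, because both levels were dim. Neuronal and oligodendrocytic cultures, neighbours in the order, differed by 0.24 (95% interval -0.20 to 0.68, adjusted p = 0.414).

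Sox2 had a different profile, with high levels in 2 kinds of glial culture. Its log2 level was 11.18, 11.01, 10.99 and 10.51 on the astrocytic arrays and 11.12, 11.19, 10.96 and 11.41 on the oligodendrocytic arrays, and these groups overlapped. It was 10.16, 9.92, 9.12 and 9.10 on the microglial arrays and 7.54, 7.80, 8.46 and 8.56 on the neuronal arrays, which did not overlap each other or the 2 groups above. No culture was dim for Sox2. The order was oligodendrocytic (11.17 ± 0.19, SD, n = 4) and astrocytic (10.92 ± 0.29), then microglial (9.57 ± 0.54), then neuronal (8.09 ± 0.50).

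Astrocytic and oligodendrocytic cultures differed by -0.25 ± 0.27 for Sox2 (95% interval -0.82 to 0.32, adjusted p = 0.546). Sox2 was 8.47-fold higher in oligodendrocytic than in neuronal cultures (neuronal minus oligodendrocytic -3.08, adjusted p = 1.43e-07) and 7.13-fold higher in astrocytic than in neuronal cultures (2.83 ± 0.27, 3.02e-07). It was 2.55-fold higher in astrocytic than in microglial cultures (1.35, 0.000853), 3.02-fold higher in oligodendrocytic than in microglial cultures (1.60, 0.000406) and 2.80-fold higher in microglial than in neuronal cultures (neuronal minus microglial -1.49, 0.000212). Against the mean of the other 3 cultures, the astrocytic difference was 1.31 ± 0.22 (adjusted p = 0.000158), and 1.45 ± 0.23 without astrocytic replicate 4.

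Beside the Sox2 values, markers of other cell types moved on the same arrays. Microglial arrays 1 to 4, with Sox2 at 10.16, 9.92, 9.12 and 9.10, had oligodendrocyte precursor lists (5 genes) of 8.11, 7.85, 7.45 and 7.12, against 9.10 to 9.37 on oligodendrocytic and 4.78 to 5.85 on neuronal and astrocytic arrays. The precursor genes include Pdgfra, a growth factor receptor of these cells, at 10.10, 9.99, 9.08 and 8.99 on the microglial arrays. Olig1, Nkx2-2 and Cspg4 were also lower on microglial array 4 than on array 1 (9.88 against 11.36, 6.97 against 8.63 and 4.22 against 4.93). Olig2 of the same list did not follow Sox2 there, at 5.51, 5.94, 5.87 and 5.53. Neuronal arrays 1 to 4, with Sox2 at 7.54, 7.80, 8.46 and 8.56, had astrocytic marker lists of 7.28, 8.07, 9.43 and 9.15. Their precursor lists averaged 4.78, 5.09, 5.76 and 5.34, with Olig1 of that list at 6.85, 8.32, 9.83 and 9.23. The part of these markers in the Sox2 levels was not tested.

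The other probe sets of Sox2 gave the same order of cultures where they gave a signal. The second had means of 10.52 ± 0.29 in oligodendrocytic, 10.25 ± 0.42 in astrocytic, 8.79 ± 0.38 in microglial and 7.69 ± 0.50 in neuronal cultures. The third ran 9.29 ± 0.58, 8.59 ± 0.98, 6.81 ± 0.67 and 5.57 ± 0.45 in that order, and its astrocytic replicate 4, at 7.19, lay under the other astrocytic arrays at 8.69 to 9.43. The fourth stayed between 3.17 and 3.76 on the 26 arrays and was under every array median.

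Hes1 was also higher in astrocytic cultures, with the widest spread of the 5 genes among the astrocytic arrays. Its log2 level was 6.45, 6.49, 6.91 and 8.05 on astrocytic arrays 1 to 4. It was 5.03, 5.13, 4.74 and 4.08 on the neuronal, 4.94, 4.00, 4.17 and 4.17 on the oligodendrocytic and 4.91, 3.91, 4.34 and 4.21 on the microglial arrays. Every astrocytic array lay above the other arrays, and the other 3 cultures overlapped each other at dim levels. The means were 6.98 ± 0.74 (SD, n = 4) in astrocytic, 4.75 ± 0.47 in neuronal, 4.32 ± 0.42 in oligodendrocytic and 4.34 ± 0.42 in microglial cultures.

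Against the mean of the others, Hes1 was higher in astrocytic cultures by 2.51 ± 0.28 (adjusted p = 3.23e-06), at least 5.68-fold. Its pairwise differences were 2.23 ± 0.34 against neuronal (5.59e-05), 2.66 against oligodendrocytic (1.96e-05) and 2.63 against microglial cultures (1.82e-05). The highest array, astrocytic replicate 4, is the array with the high fibroblast and meningeal list given above, raised mainly in collagen genes. Without it the difference from the mean of the others was 2.15 ± 0.24 (adjusted p = 4.12e-06), so the call did not rest on that array. Neuronal cultures, next in the order, differed from oligodendrocytic by 0.43 (95% interval -0.30 to 1.16) and from microglial by 0.40 (-0.33 to 1.13).

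Hes5 showed no difference that passed the test. Its log2 level was 5.28, 5.63, 5.09 and 5.76 on the astrocytic, 5.08, 5.44, 5.44 and 5.11 on the neuronal, 5.30, 5.31, 5.58 and 5.38 on the oligodendrocytic and 5.54, 5.14, 5.73 and 5.52 on the microglial arrays. All 4 cultures overlapped, at levels close to the array median of 5.26 to 5.31. Astrocytic cultures differed from the mean of the others by 0.06 ± 0.13 (95% interval -0.22 to 0.33, adjusted p = 0.752). The other Hes5 probe set read 4.15 to 5.03 over all arrays, also with no call between cultures. A signal at this level does not show whether the transcript was present.

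Counted over the pairwise comparisons, 4 of 5 members were higher in astrocytic than in neuronal cultures, against 12.0% of all probe sets, 3 of 5 were higher in astrocytic than in oligodendrocytic cultures, against 8.04%, and 4 of 5 were higher in astrocytic than in microglial cultures, against 9.13%. Outside the astrocytic comparisons the counts were small. Sox2 was the 1 member called between oligodendrocytic and neuronal cultures, higher in the former, against 10.6% of probe sets. Between neuronal and microglial cultures Emx2 was higher in neuronal (14.1% of probe sets were) and Sox2 in microglial cultures (11.6%). Between oligodendrocytic and microglial cultures Emx2 and Sox2 were higher in the former, against 6.27%. The comparisons share culture arrays and are not independent of each other.

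**Figure D2:**
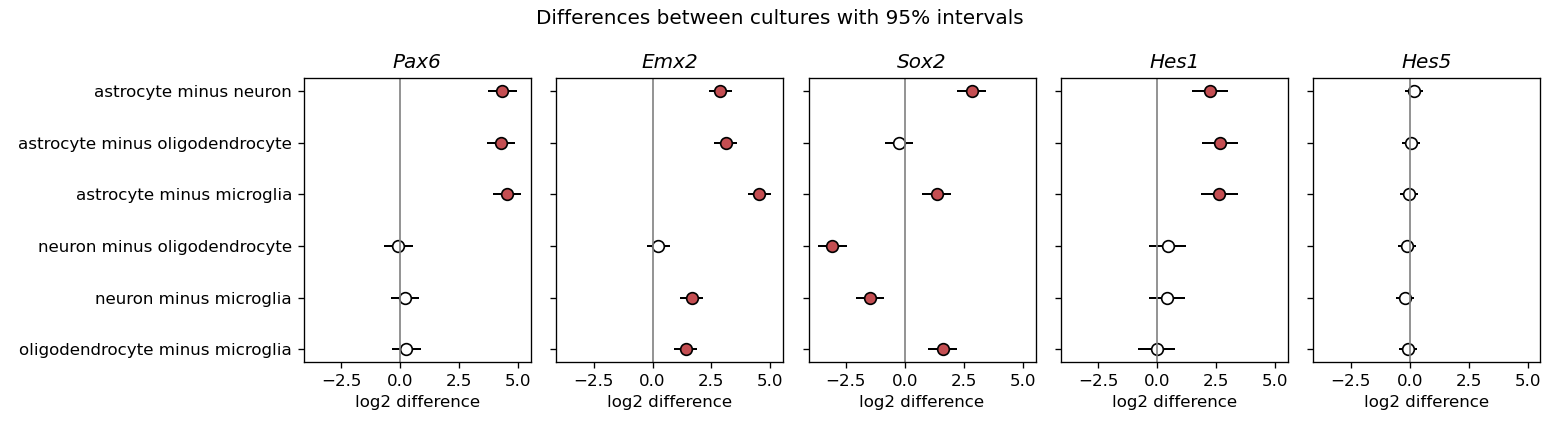
Log2 differences between cultures (horizontal axis, first named minus second) for the 6 pairs (vertical axis) in each of the 5 genes. Circles are the fitted differences, filled where called, and lines are 95% intervals. The astrocytic comparisons of Pax6, Emx2 and Hes1 lie right of 0, the astrocytic minus oligodendrocytic interval of Sox2 spans 0, and no circle of Hes5 is filled.

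Across the 16 culture arrays Pax6 correlated with Emx2 (Pearson r = 0.932) and with Hes1 (0.915), and Emx2 with Hes1 (0.862). Sox2 correlated less with Pax6 (0.456), Emx2 (0.395) and Hes1 (0.256). These coefficients describe arrays that fall into 4 cultures and share them, and they carry no test. Among all other genes, those with the most similar profiles to Pax6 were Rarres2 (r = 0.989), Efemp2 (0.987) and Gulp1 (0.985). Those for Emx2 were Cnn3 (0.988), Epb41l4a (0.986) and Sdc2 (0.983). Those for Hes1 were Mid1 (0.970), Rnd3 (0.965) and Thbs3 (0.965), and those for Sox2 were Pvr (0.980), Carhsp1 (0.979) and E2f5 (0.971). For Hes5 the closest were Pcp2 (0.885), LOC102548988 (0.877) and Wdr95 (0.867), whose culture means stayed between 4.42 and 5.34.

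Genes that work with these factors were then described by lists, comparing astrocytic cultures with the mean of the other 3. Each list count below stands beside 8.14% of all probe sets called higher and 7.55% called lower in that comparison. The lists were chosen with earlier results of these data known, so their counts are a description and no test against those shares. Among genes of radial glia and progenitor cells, 9 of 11 measured (12 listed) were higher and 0 lower, with a median difference of 2.07. They included Tnc, an extracellular matrix protein (4.57 ± 0.50, adjusted p = 2.93e-06), the intermediate filament genes Vim (3.03 ± 0.29, 6.73e-07) and Nes (2.81 ± 0.21, 4.14e-08). Nes stood at 9.09 to 9.65 on astrocytic arrays and 5.84 to 7.15 on the others. Pair by pair, 9 of the 11 were higher in astrocytic than in neuronal, 6 than in oligodendrocytic and 8 than in microglial cultures. Over all probe sets these shares were 12.0%, 8.04% and 9.13%. Of the same list, Hopx averaged 7.79 in astrocytic and 7.61 in microglial cultures, and Fabp7 12.68 in astrocytic and 12.26 in oligodendrocytic cultures. Among gliogenic factors 8 of 10 were higher and 0 lower (median 1.86), led by the helix-loop-helix inhibitors Id3 (4.55 ± 0.34, 4.09e-08) and Id1 (3.47 ± 0.29, 1.81e-07). Id4, of the same family, was higher by 2.01 ± 0.29 (4.43e-05). Gfap, the intermediate filament gene of astrocytes, was higher by 3.30 ± 0.55 (0.000154), with 12.04 on astrocytic replicate 4 against 13.35 to 13.73 on the other 3 and 10.37 to 12.49 on neuronal arrays.

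The partners of Pax6 and Emx2 in cortical patterning were less uniform. Of 9 measured (15 listed), 3 were higher in astrocytic cultures and 0 lower, with a median of 0.57. The LIM-homeobox gene Lhx2 was higher by 3.01 ± 0.34 (adjusted p = 4.02e-06) and the nuclear receptor gene Nr2f2 by 1.67 ± 0.28 (0.000194). Both also had high neuronal levels, with Lhx2 at 8.98 ± 0.97 in neuronal and 10.31 ± 0.09 in astrocytic cultures and Nr2f2 at 7.36 ± 0.28 and 6.65 ± 0.73. Emx1, the close relative of Emx2, differed by -0.01 (adjusted p = 0.984). Its means were 6.67 ± 0.68 in neuronal, 5.67 ± 0.27 in astrocytic, 5.16 ± 0.31 in oligodendrocytic and 5.20 ± 0.24 in microglial cultures. On neuronal arrays 1 to 4, Emx1 read 7.09, 7.41, 6.03 and 6.16, and Lhx2 read 9.87, 9.77, 8.18 and 8.11. Arrays 1 and 2, the parents of the mixtures, were thus the higher ones for both. Meis2 of the same list was not split so (10.26, 9.55, 10.27 and 10.39).

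Relatives of Sox2 were mostly not called. Of 10 measured Sox genes (12 listed), 0 were higher and 2 lower in astrocytic cultures (median 0.07). The lower ones were Sox10, a factor of the oligodendrocyte lineage (-2.81 ± 0.27, adjusted p = 5.61e-07), and Sox3, a SoxB1 factor like Sox2 (-1.11, 0.000441). Sox10 stood at 10.74 ± 0.23 (SD, n = 4) in oligodendrocytic and 8.56 ± 0.93 in microglial cultures and near 5 elsewhere, with 4.99 ± 0.18 in neuronal and 5.28 ± 0.26 in astrocytic cultures. Sox3 was at 7.96 ± 0.07 in oligodendrocytic cultures and at 5.04 to 5.82 in the mean of each other culture. Of 5 oligodendrocyte precursor genes, 4 were lower in astrocytic cultures (median -2.08), among them Olig1 (-3.06 ± 0.45, 5.33e-05), Pdgfra (-2.70 ± 0.26, 6.63e-07) and Olig2 (-1.35 ± 0.34, 0.00442).

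For the Notch pathway that acts on Hes1 and Hes5, counts were given step by step. Of 5 ligands, 1 was higher and 0 lower in astrocytic cultures (median -0.15). It was Jag1, at 6.73, 6.91, 6.68 and 9.20 on astrocytic arrays 1 to 4. Its difference of 1.22 ± 0.35 (adjusted p = 0.00974) became 0.62 ± 0.17 without replicate 4, under the minimum of 1. The other ligands, Dll1, Dll3, Dll4 and Jag2, had differences of -0.35 to -0.01. Of 4 receptors, 1 was higher (median 0.17), namely Notch1, by 1.02 ± 0.14 (3.46e-05). Notch1 was dim in neuronal cultures (5.12 ± 0.25) and above the median in the other 3, at 8.09 ± 0.32 in astrocytic, 8.12 ± 0.25 in oligodendrocytic and 7.99 ± 0.20 in microglial cultures. The differences of Notch2, Notch3 and Notch4 were 0.23, -0.19 and 0.12, none of them called. The Notch1 call rested on a difference just past 1 and was lost when any of 5 arrays was left out (neuronal 1, astrocytic 1 or 2, oligodendrocytic 1, microglial 3).

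Among the processing enzymes, modulators and mediator of Notch signalling, 2 of 12 measured (14 listed) were higher and 1 lower (median 0.21). The higher ones were Numbl (1.59 ± 0.14, adjusted p = 3.69e-07) and Numb (1.54 ± 0.10, 9.38e-09), which code for adaptors that inhibit Notch, and the lower was the glycosyltransferase gene Mfng (-1.0 ± 0.20, 0.000671), whose call was lost when any of 5 arrays was left out. Numbl did not pass against neuronal cultures (-0.13 ± 0.18, adjusted p = 0.612), with means of 8.0 ± 0.39 in neuronal, 7.87 ± 0.14 in astrocytic, 5.76 ± 0.21 in oligodendrocytic and 5.07 ± 0.25 in microglial cultures. Rbpj, the DNA-binding mediator, did not pass (0.34 ± 0.17, 0.127). Its level was 7.30 ± 0.15 in neuronal cultures and 9.82 ± 0.39, 10.85 ± 0.19 and 10.29 ± 0.41 in astrocytic, oligodendrocytic and microglial cultures. Among the targets and relatives of Hes1 and Hes5, 2 of 8 (9 listed) were higher and 0 lower (median 0.07). They were the Hes-related repressors Hey2 (3.30 ± 0.32, 7.71e-07) and Hey1 (2.33 ± 0.19, 1.09e-07). Hey2 stood at 8.24, 7.45, 7.58 and 7.04 on the astrocytic arrays and at 3.64 to 5.69 on the others, with no overlap. Hey1 stood at 9.48 to 10.17 on the astrocytic and 6.40 to 8.25 on the other arrays.

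Proneural and other neurogenic factors, some of which Hes repressors hold back, were lower or not called. Of 10 measured (13 listed), 0 were higher and 3 lower in astrocytic cultures against the mean of the others (median -0.33). Over all probe sets 7.55% were lower there. Against neuronal cultures 5 were lower (median -1.36), as were 12.0% of all probe sets. In comparison with oligodendrocytic and with microglial cultures, 0 of 10 were called either way (medians 0.09 and 0.04). Of those called against the mean of the others, Myt1l (-1.65 ± 0.21, adjusted p = 1.22e-05) and Dlx1 (-1.63 ± 0.36, 0.00193) had the largest differences. Myt1l read 8.81 to 10.25 on the neuronal and 4.55 to 5.08 on all other culture arrays. Genes of dividing cells also separated the cultures. Of 8, all 8 were called higher in astrocytic than in neuronal cultures (median 3.49), against 12.0% of all probe sets. Set against oligodendrocytic cultures 0 were called (median -0.32), and against microglial cultures 0 were higher and 2 lower (median -0.44). Against the mean of the other 3 cultures 2 were called higher, the kinase gene Cdk1 (2.13 ± 0.12, adjusted p = 2.61e-09) and the topoisomerase gene Top2a (1.53 ± 0.16, 1.26e-06). Their list averaged 8.12 to 8.75 on astrocytic, 8.58 to 8.96 on oligodendrocytic, 8.66 to 9.19 on microglial and 5.17 to 5.34 on neuronal arrays, and its part in the values of the progenitor factors was not tested.

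**Figure D3:**
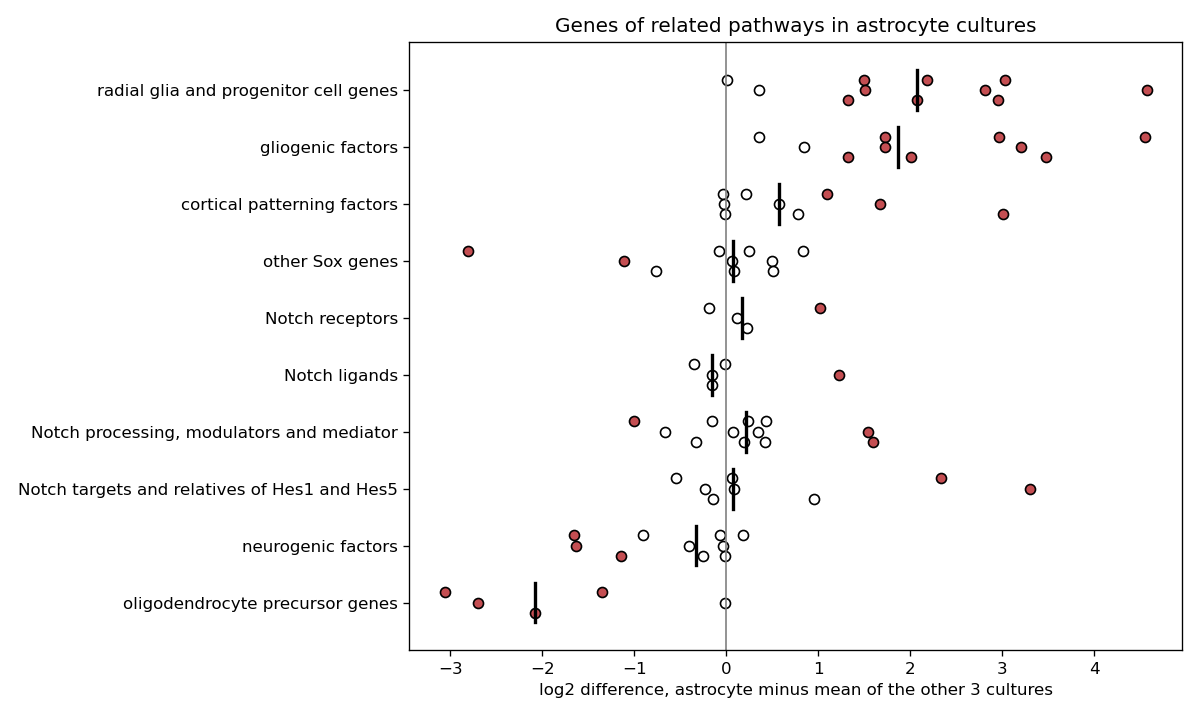
Log2 differences of astrocytic cultures against the mean of the other 3 (horizontal axis) for the genes of 10 lists (vertical axis). Each circle is 1 gene, filled where called, and black bars are list medians. The radial glia and gliogenic lists, with medians of 2.07 and 1.86, lie right of 0, and the Notch ligand, receptor and Sox lists have medians within 0.17 of 0.

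In the neuron-astrocyte mixtures Pax6, Emx2 and Sox2 fell as the neuronal share of the RNA grew. Pax6 read 8.42 and 8.81 in NA1 (replicates 1 and 2), 7.64 and 8.21 in NA2, and 6.88 and 7.12 in NA3. Emx2 read 7.22 and 7.12, 6.49 and 6.57, and 5.68 and 5.63 in the same mixtures. Each replicate of both genes was lower at every step. Sox2 read 10.71 and 10.20, 10.17 and 9.60, and 9.49 and 8.92, also lower at each step within a replicate. The slope, in log2 per unit of neuronal fraction, was -3.23 ± 0.46 for Pax6 (adjusted p = 0.00728), -3.03 ± 0.22 for Emx2 (0.00404) and -2.49 ± 0.57 for Sox2 (0.0331). These are 3 of the 5 members, against 5.01% of all probe sets called lower. The mixtures hold RNA of cultures in which these genes were higher in the astrocytic parent, so a fall was set by the shares. The share-weighted sum of the replicate 1 parents gave Pax6 at 8.60, 8.07 and 7.23 in NA1, NA2 and NA3. These slopes, and that of Hes1 below, are thus no separate evidence for the difference between cultures. The Sox2 call was lost without NA1 replicate 1 (adjusted p = 0.113), NA2 replicate 2 (0.0548), NA3 replicate 1 (0.0513) or NA3 replicate 2 (0.139), with slopes of -1.97 to -2.95. With the replicate as a block, which takes account of the shared parents, the Sox2 slope was -2.49 ± 0.20 (adjusted p = 0.000981).

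Hes1 differed more between the mixture replicates than the other 4 genes did. It read 6.17 and 7.47 in NA1, 5.52 and 7.0 in NA2, and 5.11 and 6.40 in NA3. Replicate 2 was above replicate 1 by 1.30, 1.49 and 1.30, and the astrocytic parent of replicate 2 was above that of replicate 1 by 1.59. The fibroblast and meningeal list, high in the same parent, averaged 7.64 to 8.88 in replicate 2 and 5.07 to 6.18 in replicate 1 of the 5 mixtures. Without a term for the replicate, the Hes1 slope of -2.13 ± 1.33 did not pass (adjusted p = 0.393). The replicates of the mixtures share stated parents, and with the replicate as a block the slope was -2.13 ± 0.21 (0.00105), so that 4 of the 5 members were called lower, against 11.7% of all probe sets. Hes5 had a slope of 0.30 ± 0.46 (adjusted p = 0.759), and of 0.30 ± 0.22 with the block (0.412).

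In NAO the neuronal share is that of NA2, with part of the astrocytic RNA replaced by oligodendrocytic RNA. The replicate 1 levels expected from the parents thus fell from 8.07 to 7.21 for Pax6 and from 6.95 to 6.24 for Emx2. A lower level of these genes in NAO was set by the shares and is no separate result on the cultures. Emx2 read 5.72 and 5.67 in NAO and was lower than in NA2 by 0.83 ± 0.13 (difference -0.83, adjusted p = 0.0312), the 1 member called, against 0.197% of probe sets called lower. Leaving out any replicate of NA2, NA3 or NAO ended this call (adjusted p = 0.0676 to 0.233), while the difference stayed at -0.87 to -0.80. Pax6 read 6.80 and 7.17, a difference of -0.94 ± 0.24 that did not pass (0.198). With the replicate block both were called, Pax6 at an adjusted p of 0.00389 and Emx2 at 0.00993, against 1.62% of probe sets called lower and 1.85% higher. Sox2 read 10.41 and 10.33, a difference of 0.48 ± 0.26 (adjusted p = 0.725, and 0.188 with the block), and Hes1 read 5.23 and 6.14 (-0.58 ± 0.69, 0.921).

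In NAOM, where microglial RNA takes the place of part of the other glial RNA, no member was called against NAO. Pax6 read 6.50 and 6.81 (difference -0.33), Emx2 5.67 and 5.31 (-0.20), Sox2 10.20 and 10.06 (-0.24) and Hes1 4.97 and 5.65 (-0.37). By limma 0 members had even an unadjusted p under 0.05, and with the replicate block Pax6 alone did (0.0158, adjusted 0.792). Over all probe sets 0.0419% were called, all of them higher in NAOM.

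Because the parents and shares are stated, each mixture level was set against the level expected from the share-weighted sum of its parents' linear values. Sox2 lay close to it, with a median observed minus expected of 0.02 (range -0.13 to 0.15) and 5 of 10 arrays above. Pax6 was under the expected level on 10 of 10 arrays, by a median of -0.41 (-0.48 to -0.18), as were Emx2 (-0.53, -0.80 to -0.19) and Hes1 (-0.26, -0.60 to -0.04). Hes5 had a median of -0.10 (-0.40 to 0.04). Over the single values of 14217 genes on the 10 arrays the median was -0.12, with 5% of values under -0.50 and 5% over 0.18. Those limits hold for single values, so a gene's median over 10 arrays cannot be placed by them. Every Pax6 value lay within the limits. Emx2 lay under -0.50 at -0.52, -0.54, -0.58, -0.69, -0.74 and -0.80, and Hes1 did so at -0.60 only. The directions of observed minus expected are those for mixed linear values. A weighted mean of log2 values is never above the log2 of the weighted linear mean. Mixing log2 values can thus only raise observed minus expected or leave it unchanged, and is no test of these directions. With log2 values mixed instead, the medians were 0.93 for Pax6, 0.13 for Emx2, 0.84 for Sox2, 0.13 for Hes1 and -0.10 for Hes5. This is a description of 10 arrays made from 2 sets of parents, with no test.

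**Figure D4:**
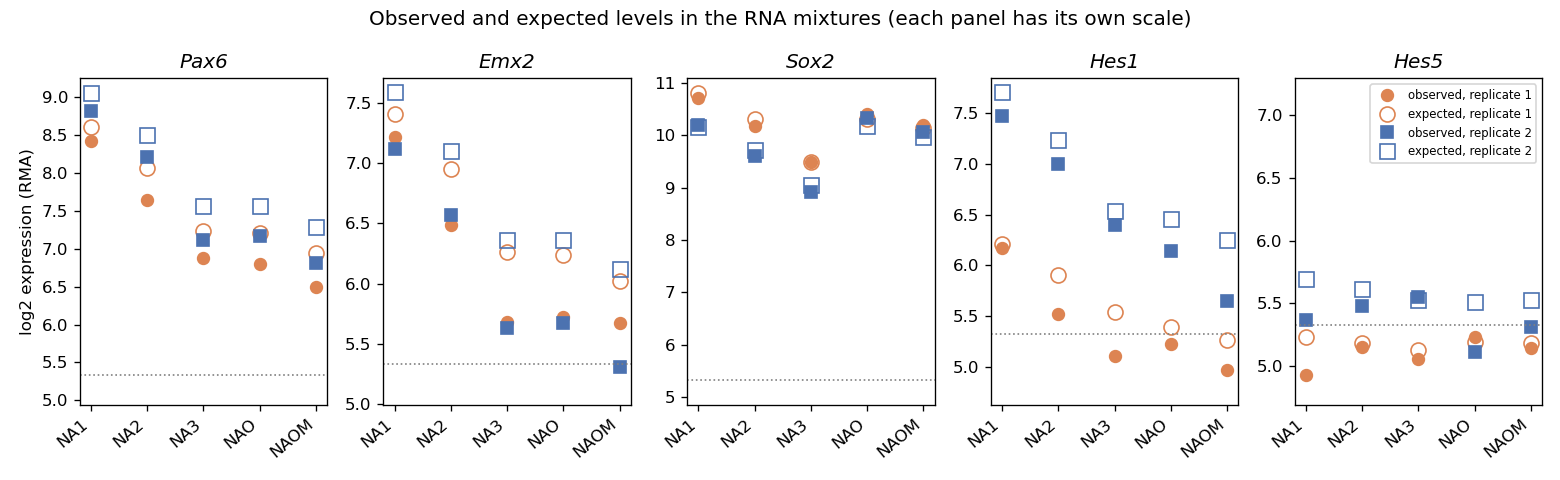
Observed (filled) and expected (open) log2 levels (vertical axes, each panel with its own scale) of the 5 genes in the 5 RNA mixtures (horizontal axis), by replicate. The dotted line is the lowest mixture array median, 5.33. Pax6, Emx2 and Hes1 lie under their expected levels on all 10 arrays, and Hes1 replicate 2 lies above replicate 1 in every mixture.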

How the data were processed

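RNA of 16 rat brain cell cultures and 10 mixtures of it was biotin-labelled and hybridised to Affymetrix arrays. The authors deposited log2 values made with RMA in the affy package, per the submitters' processing notes, with no version given. RMA normally includes quantile normalization, so a difference is relative to the other probe sets. The table held 31099 probe sets (values 2.57 to 14.36). After 57 controls were left out, 31042 were tested with no filter, of which 20826 carried 1 gene symbol, 436 several and 9780 none. Symbols came from the platform annotation, and promoters and gene positions from RefSeq (GRCr8).

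limma 3.58.1 (R 4.3.3, lmFit and eBayes) was fitted with 1 mean per culture, over 16 arrays. Calls needed an adjusted p under 0.05 and a log2 difference of at least 1. For mixtures, a slope on neuronal fraction (6 arrays) and differences between mixtures (10 arrays) were tested with no minimum. Groups followed titles and cell types. The labels say biological replicates without saying from which animals, so p-values between cultures measure the spread between these samples. The 10 mixture arrays come from 2 sets of parents, and the fits without a block treat the arrays as independent. With or without the block, mixture p-values describe arrays made from these parents only. Mixture replicates share stated parents, and deviations of same-numbered arrays correlated at r of 0.381 to 0.873 in 20 of 20 pairs. The number of arrays limits the precision, and no batch is given in the sources used here. Python 3.11.15, pandas 2.3.3, numpy 2.4.6 and matplotlib 3.10.9 were also used.

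The members and lists were chosen with earlier results of these data known. The rule named the members, the 2 list genes with the largest called difference each way, genes of the same family or pathway, and the 3 genes most correlated with each member. The alternatives were another probe set, centring, normalization, variance model, filter, log2 minimum, replicate block, mixing on the log2 scale, and leaving out each array.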

Additional observations from a re-analysis of the deposited data

How the results depend on the processing

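No called difference between cultures or mixtures changed direction under the alternatives run, though some differences that were not called changed sign (Hes1 in NAO against NA2, -1.32 to 0.16). Calls of Pax6, Emx2 and Hes1 in the astrocytic comparisons held under every alternative run, as did that of Sox2 against neuronal cultures. The Sox2 calls against microglial cultures (1.35) and against the mean of the others (1.31) were lost at a log2 minimum of 2. That minimum also left 0 members called between neuronal and microglial and 0 between oligodendrocytic and microglial cultures. Between NAO and NA2, 2 members were called with the replicate block and 0 with trended and robust variance (1 in the fit reported), and 0 to 1 when an array was left out. The block also called the Hes1 slope (adjusted p = 0.00105 against 0.393). The Sox2 slope did not pass with its next probe set (-2.15, adjusted p = 0.0754). The median observed minus expected over the members was -0.27. It was 0.20 when log2 values were mixed (Pax6 0.93, Emx2 0.13, Sox2 0.84, Hes1 0.13, Hes5 -0.10), which cannot lower it. It was -0.36 with the next probe set, -0.38 after median centring, and -0.19 to -0.28 when a replicate was left out. Culture replicate numbers do not pair the samples (r of -0.107 to 0.178, 5 of 24 pairs above 0.1), and the block changed no other call of a member. Counts over all probe sets moved by over 1.5 times with the log2 minimum (astrocytic against the others 4873, 12750 with none, 1649 at 2) and with the block (slope 4447 and 7503, NAO against NA2 341 and 1077, NAOM against NAO 13 and 37). Without NA3 replicate 2 the slope count was 2246, and without an NA2 or NAO array the NAO against NA2 count was 113 to 175. NAOM against NAO gave 1 to 7 without an NA3, NAOM or NAO replicate 1 array, 24 with trended variance and 40 with array weights. For the lists, chosen after seeing the data, array weights ended the Jag1 and Notch1 calls. Dim levels limit what can be said of Hes5 and of Pax6, Emx2 and Hes1 outside astrocytic cultures.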
